A study of Mus musculus with 3 samples.

Results

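Thymocytes without TCF-1 were compared with wild type thymocytes, using 2 of the 3 arrays of the series and all 19938 genes that could be named from a single symbol. For each gene the comparison is the log2 value on the TCF-1-deficient array minus that on the wild type array, so a value of 1 is a 2-fold higher level and a value of -1 a 2-fold lower one. TCF-1 is an HMG-box transcription factor of the T lineage that binds DNA in partnership with β-catenin or with Groucho co-repressors. In the thymus it is known for its part in T lineage commitment, in the passage to the CD4+CD8+ double-positive stage and in the survival of double-positive cells. Thymocytes that lack it are known to accumulate at earlier stages.

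The TCF-1-deficient array held RNA of TCF-1-/- thymocytes at a labelled age of 8 wks, and the wild type array RNA of WT thymocytes at 12 wks. The third array, of β-catenin transgenic thymocytes at 16 wks, is used only for values set beside the other two. No source used here states the strain, how many animals were pooled for an array or which promoter drives the transgene. The suspension was strained and no sort is mentioned. In such bulk RNA, fewer cells of a type and less RNA per cell cannot be told apart, and genotype and age cannot be told apart either. There was 1 array per genotype, so no value below has an error or a p-value. Where values of 3 arrays are listed for a gene, they are deposited log2 values in the order wild type, transgenic, TCF-1-deficient.

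The T lineage label was checked against 12 marker genes, of which 11 were measured. None was below the median level over genes (6.90) on both arrays. Cd3g, a chain of the CD3 complex, was at 13.16, 13.10 and 13.33, and Cd3e at 13.42, 13.34 and 13.05. Thy1, a surface glycoprotein of T cells, was at 13.18, 13.25 and 12.57. The 3 T lineage markers that were at least 2-fold lower without TCF-1 were Cd4, Cd8a and Themis. Smaller decreases were seen in Cd247 (-0.91), Bcl11b (-0.68) and Cd5 (-0.61), whereas Cd3d (0.60) and Cd3g (0.17) were higher. The median difference of the 11 markers was -0.61. Their sum on the linear scale fell from 63144.3 in wild type to 40528.5 without TCF-1. The targeted gene itself was not analysed here, so its level gives no check of the genotype.

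Of the 19938 genes, a 2-fold or larger difference was downward without TCF-1 in 523 (2.62%) and upward in 266 (1.33%). At 1.5-fold the shares were 6.9% and 4.04%. The counts came closer together at larger sizes, with 79 against 66 at 4-fold and 17 against 21 at 8-fold. Apart from the lowest and the highest 2.5% of genes, differences lay between -1.02 and 0.75. For the transgenic minus the wild type array the same range was -0.36 to 0.29. Lower genes made up 66.3% of those beyond 2-fold with the deposited normalization. They made up 52.7% when each array was centred on its median over all probe sets, a step that adds 0.13 to every difference.

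Most genes beyond 2-fold were at or above the median level over genes (6.90) on both arrays, a cut that is not a call of detection. Of the 523 lower genes, 362 were at or above the median level on both arrays (3.79% of the 9558 genes of that class), 140 were below it on the TCF-1-deficient array only, and 21 were below it on both. Of the 266 higher genes, 146 were at or above it on both arrays (1.53%), 96 were below it on the wild type array only, and 24 were below it on both. Probe sets outside the named genes were counted apart. Of 12146 without a name 20.1% were lower and 0.963% higher by that size, and of 1621 with several symbols 3.39% were lower and 1.17% higher.

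Genes with more than 1 probe set gave a limited check within the arrays. Among 32 such lower genes, every probe set was lower in 23 and beyond 2-fold in 18, while 4 had a probe set with the opposite sign. Among 12 such higher genes, every probe set was higher in 11 and beyond 2-fold in 7.

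**Figure D1:**
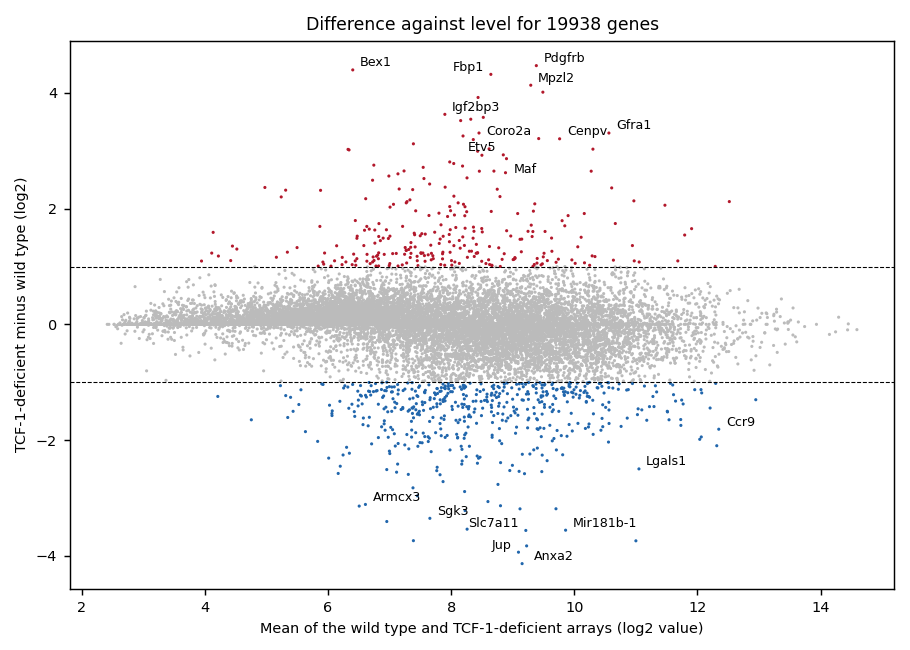
Each point is 1 of 19938 genes. The horizontal axis is the mean log2 value of the wild type and TCF-1-deficient arrays, the vertical axis is the TCF-1-deficient minus wild type difference in log2 units, and dashed lines mark 2-fold. Lower genes (blue, 523) outnumber higher genes (red, 266), but the largest differences, such as Pdgfrb at 4.47, are upward.

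Among genes at or above the median level on both arrays, the 15 lowest differed by -4.14 to -2.50. On the transgenic array these 15 genes lay between 0.52 below and 0.47 above wild type. Jup, plakoglobin, a relative of β-catenin in cell junctions, was at 11.06, 11.54 and 7.12. Anxa2, a calcium-dependent phospholipid-binding protein, was at 11.14, 11.34 and 7.31. Slc7a11, which exchanges cystine for glutamate, was at 10.99, 10.98 and 7.43. In each of these genes the TCF-1-deficient array alone was low.

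Dhrs3, a reductase of retinaldehyde, was at 11.30, 11.14 and 8.11, a 9.12-fold lower level without TCF-1. Wdr78, a dynein component of cilia, was also 9.12-fold lower (10.71, 10.75 and 7.52). Glipr1 was at 10.13, 9.93 and 7.07. These genes too differed little between the wild type and transgenic arrays.

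Dnajc6, the uncoating chaperone auxilin, was at 10.75, 10.52 and 8.20. Ybx3, a cold-shock domain protein that binds RNA, was at 10.37, 10.24 and 7.83. Lgals1, galectin-1, a sugar-binding protein, was at 12.30, 11.88 and 9.80. The other members of the 15 were Dgkeos, Dgke, Cd4, Bcl6, Gbp8 and Trav14-1.

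The 15 highest genes at or above the median level on both arrays differed by 2.65 to 4.47. Receptors and adhesion proteins were among them. Pdgfrb, a tyrosine kinase that binds platelet-derived growth factors, was at 7.15, 6.87 and 11.62, and Mpzl2, an adhesion protein of the immunoglobulin family, at 7.23, 7.05 and 11.36. Gfra1, a receptor for glial cell line-derived factor, was at 8.91, 8.13 and 12.22. The TCF-1-deficient array was the high one for each of these genes.

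Coro2a, an actin-binding coronin, was 9.26-fold higher without TCF-1 (7.82, 7.503 and 11.03), and Cenpv, a centromere protein, was 9.24-fold higher (8.16, 8.63 and 11.37). Cd163l1, a scavenger receptor, was at 7.10, 7.26 and 10.13. Cpa3, a carboxypeptidase known from mast cells, was at 7.04, 6.81 and 9.96. Adam19, a membrane protease, and Arhgef10l, a guanine nucleotide exchange factor, were each 6.27-fold higher. The remaining genes were Ly86, Dtx1, Blk, Etv5, Maf and Gzma.

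**Figure D2:**
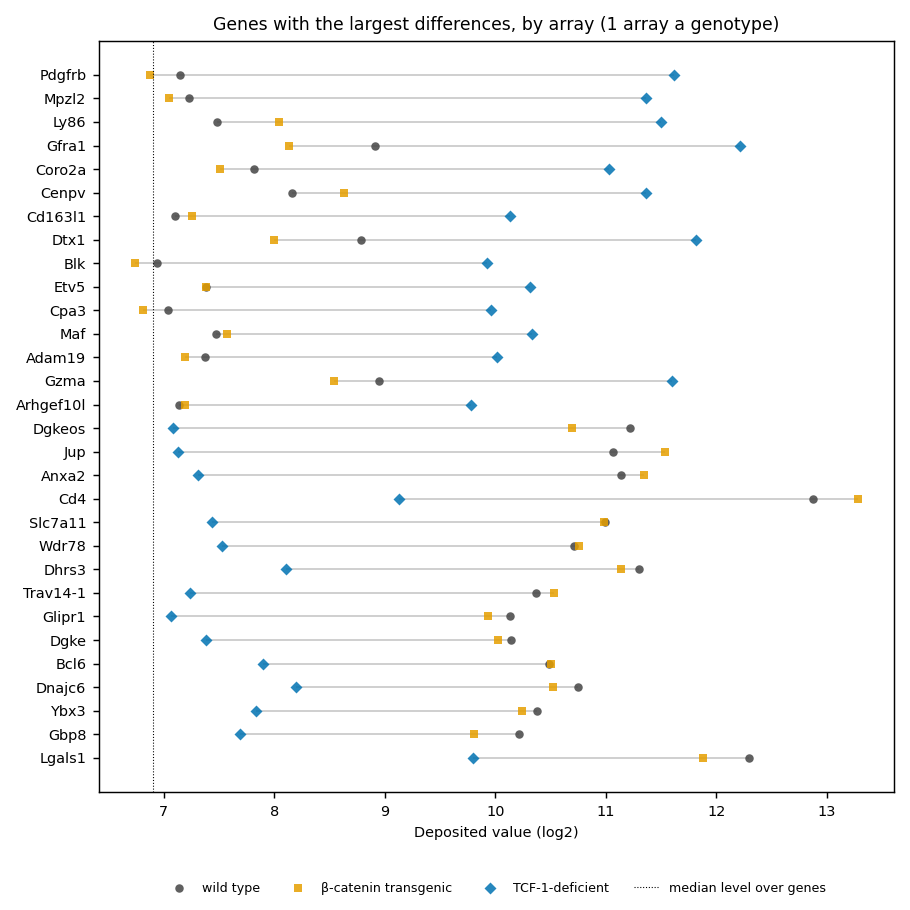
Log2 values on the 3 arrays for the 15 lowest and 15 highest genes at or above the median level over genes (6.90, dotted line) on both compared arrays. The TCF-1-deficient value (blue) lies alone at one end for every gene, with the wild type (grey) and transgenic (orange) values within 0.80 of each other.

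A further set of genes crossed from the upper quartile (at least 8.69) on one array to below the median level on the other. There were 14 such genes lower and 17 higher without TCF-1. For these the dim value is less certain than the bright one, and so is the size of the difference. Sgk3, a kinase downstream of PI3 kinase, was at 9.33, 9.34 and 5.98. Fmnl2, a formin that extends actin filaments, was at 8.94, 9.12 and 5.97, and Adamts6, a secreted protease, at 8.79, 8.22 and 5.97. Sqor, which oxidises sulfide in mitochondria, was at 9.03, 9.64 and 6.501. In the other direction, Fbp1, a gluconeogenic enzyme, was at 6.48, 7.51 and 10.81. Uaca was at 6.39, 6.63 and 9.92, Lmcd1, a LIM-domain protein, at 5.83, 6.08 and 8.95, and Sertad4 at 6.57, 6.99 and 9.38.

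The other genes were grouped into 58 lists of families and pathways, with 1390 of their 1501 entries measured. A list is described by its counts and its median difference, beside 2.62% lower, 1.33% higher and a median of 0 over all genes. Counts of members below or above 0 are to be read against 26.1% below and 37.6% above over all genes. Over genes at or above the median level on both arrays the shares were 45.5% and 34.9%, and the rest were identical. The medians of 28 lists kept their sign under each of 3 other scalings of the arrays, 14 above 0 and 14 below. A direction for a whole list is given below only for those.

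**Figure D3:**
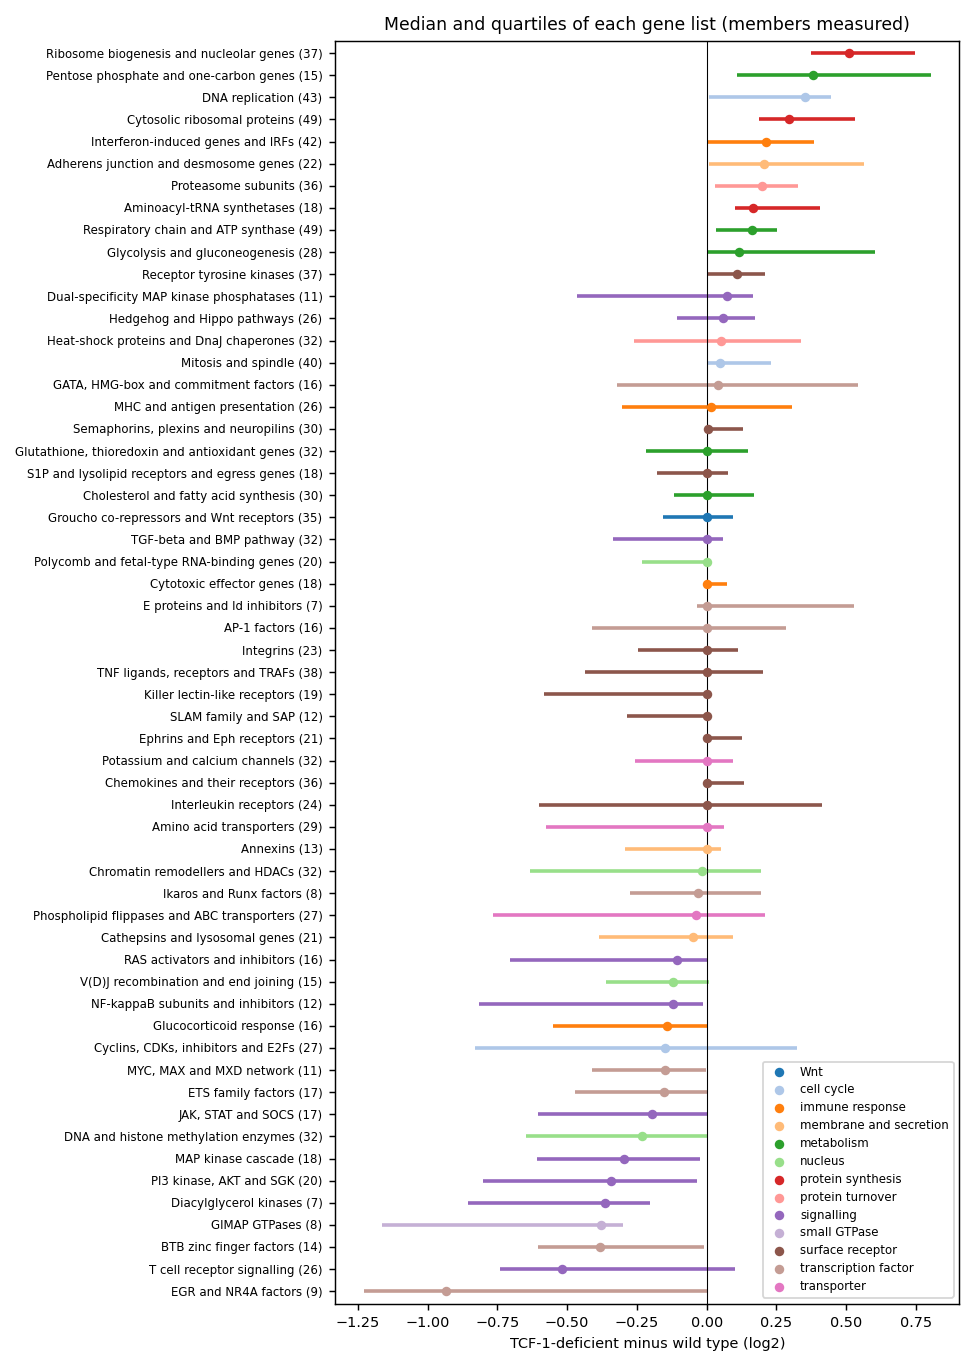
Points are the median TCF-1-deficient minus wild type difference (log2) of each gene list shown, lines run from the lower to the upper quartile of the members, and colours mark the role of the list. Ribosome biogenesis genes lie highest (median 0.51) and EGR and NR4A factors lowest (median -0.93).

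Among transcription factors, the EGR and NR4A family, which is induced by antigen receptor signals, had the lowest median of all lists, -0.93. Past 2-fold, 4 of its 9 members were down and none was up. Egr2 was at 9.39, 9.13 and 7.10, Nr4a3 at 8.36, 7.88 and 6.49, and Nr4a1 at 10.45, 9.68 and 9.22. The transgenic value was below wild type in each. AP-1 genes split: Fosb was at 9.08, 6.996 and 7.13 and Fos at 8.37, 6.96 and 7.08, so that for this pair the wild type array alone was high. Jund was at 10.30, 9.96 and 8.49. Maf, a large basic leucine zipper factor, was 7.28-fold higher without TCF-1 (7.47, 7.58 and 10.33).

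Of 17 ETS factors 1 was lower and 2 were higher. Ets2 was at 12.27, 12.74 and 10.76, while Etv5 was at 7.38, 7.38 and 10.31 and Spib, a factor known from B and plasmacytoid cells, at 6.90, 6.90 and 8.00. The median of the ETS list was -0.15, and -0.39 over its members that were not dim on both arrays. Of 14 BTB zinc finger factors 10 had a difference below 0 and 2 were at least 2-fold lower. Besides Bcl6 this was Zbtb20, at 9.64, 9.25 and 7.69. Satb1, a chromatin organiser of thymocytes, was at 13.60, 13.59 and 12.30, and Ikzf1, Ikaros, at 11.90, 11.74 and 10.65. Of 7 E proteins and Id inhibitors none was beyond 2-fold. Id2, which blocks E proteins, had the largest difference (0.80).

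Signalling from the T cell receptor was described by a list whose median was below 0 under every scaling. Of 26 measured members 4 were beyond 2-fold, each downward, and 12 were at least 1.5-fold lower, against 6.9% of all genes at that size. The median was -0.52. Txk, a Tec-family kinase, was at 10.34, 10.27 and 8.55. Themis, an adaptor needed for thymocyte selection, was at 12.60, 12.68 and 10.86. Both differed by less than 0.1 between the wild type and transgenic arrays.

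Diacylglycerol kinases remove the lipid messenger that the T cell receptor uses to activate RAS and protein kinase C. Of 7 measured, Dgke was 6.81-fold lower and Dgka 2.19-fold lower (12.62, 12.86 and 11.49), and 6 had a difference below 0. Among RAS regulators, Spred1, an inhibitor of the pathway, was at 8.12, 8.12 and 5.89, and the exchange factor Rasgrp3 was at 5.71, 5.71 and 6.74. Of 18 kinases of the MAP kinase cascade 3 were down and none up, the median being -0.30. Map4k5, a STE20-type kinase, was at 9.84, 10.59 and 6.62 and Braf at 9.94, 9.48 and 8.94. In the PI3 kinase, AKT and SGK list 7 of 20 were 1.5-fold or more below wild type and none above, the median being -0.34. Pik3cb, a catalytic subunit, was at 7.80, 7.77 and 6.43.

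Of 17 genes of the JAK, STAT and SOCS group 2 were lower. Socs1, a feedback inhibitor of cytokine signalling, was at 10.25, 10.25 and 8.70, and Stat4 at 10.16, 9.68 and 8.94. Of 12 NF-κB genes 3 were lower: Tnfaip3, which encodes the inhibitor A20 (9.998, 9.99 and 8.95), the subunit gene Rel (9.67, 9.44 and 8.64) and the inhibitor Nfkbia (10.72, 10.98 and 9.71). Genes of the TGF-β and BMP pathway differed both ways, 2 lower and 3 higher of 32. The co-receptor Tgfbr3 was at 8.88, 8.64 and 6.93 and Smad1 at 7.79, 8.00 and 6.28, whereas the ligand genes Tgfb3 (5.96, 5.77 and 7.70) and Bmp7 (8.56, 8.75 and 10.07) were higher. Of 16 glucocorticoid response genes and 11 dual-specificity phosphatases none was beyond 2-fold in either direction. Dusp1 had the largest difference in both lists, at 10.65, 9.85 and 9.83.

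Interleukin receptor genes differed in both directions, 4 down and 4 up of 24, around a median of 0. Il4ra, the IL-4 receptor chain, was at 10.61, 10.86 and 8.35 and Il21r at 9.73, 9.36 and 8.11. Il17re and Il10rb were 2.47-fold and 2.16-fold lower. Upward, Il2ra, a chain of the IL-2 receptor, had the largest difference (10.44, 9.88 and 12.50). Il9r, the IL-9 receptor, was at 7.11, 7.45 and 8.999. Il12rb2, a chain of the IL-12 receptor, was at 8.89, 9.91 and 10.38, where the transgenic array was raised as well. Il23r was higher too but dim on both arrays. Of 36 chemokine and chemokine receptor genes the only one beyond 2-fold was Ccr9, the receptor for the thymic chemokine CCL25, at 13.25, 13.24 and 11.44. In this list 24 genes were dim on both arrays.

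In the TNF superfamily 4 of 38 were lower and 2 higher. Traf1, an adaptor of TNF receptors, was at 8.14, 7.59 and 6.60, and Tnfrsf8, CD30, was at 7.71, 8.12 and 9.30. Of 23 integrins 3 were beyond 2-fold. Itga5, a chain of the fibronectin receptor, was at 8.33, 8.50 and 6.38, Itga9 at 6.56, 6.49 and 9.82, and Itgae, the CD103 chain that binds E-cadherin, at 7.67, 7.04 and 9.33. Among semaphorin receptors, Plxnd1, which guides thymocyte migration, was at 11.57, 11.75 and 9.54 and Nrp1, a co-receptor, at 8.99, 7.84 and 10.70. None of 21 ephrin and Eph genes was beyond 2-fold, and Ephb6 had the largest difference (-0.88).

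Of 12 SLAM family genes Slamf1 and Cd84 were lower, Cd84 at 9.87, 9.79 and 8.30. Of 19 killer lectin-like receptor genes 16 were dim on both arrays. Klra3 was at 7.37, 7.36 and 5.12 and Klrb1b at 5.73, 5.97 and 7.21. These values are uncertain, since near copies within the family may cross-hybridise. Among 37 receptor tyrosine kinases Ddr1, a collagen receptor (6.89, 7.56 and 8.13), was the one besides Pdgfrb to be beyond 2-fold, and 26 were dim on both arrays. Of 35 Groucho and Wnt receptor genes Tle5, a short Groucho relative, was at 12.22, 12.32 and 11.00 and Fzd7, a Wnt receptor, at 6.15, 6.05 and 7.32.

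Of 8 GIMAP genes, which encode GTPases of lymphocyte survival, 7 had a difference below 0 (26.1% of all genes did) and 3 were at least 2-fold lower. Gimap6 was at 11.24, 11.00 and 9.89, Gimap8 at 8.60, 8.25 and 7.497 and Gimap3 at 7.92, 7.12 and 6.45. The transgenic array lay between the others in each.

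Of 12 annexins Anxa2 and Anxa5 were at least 2-fold lower. S100a10, an S100 protein that was listed with them as the binding partner of annexin A2, was at 11.26, 11.36 and 9.36, and Anxa5, which binds phosphatidylserine, was at 11.35, 12.20 and 9.52. Both partners of the annexin A2 complex were thus lower, Anxa2 by 14.2-fold and S100a10 by 3.74-fold. Of the other annexins 7 were dim on both arrays. Among the brighter ones Anxa7 differed by -0.29, Anxa11 by 0 and Anxa6 by 0.40.

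Junction genes went both ways. Besides Jup, Ctnna1, α-catenin, was lower (7.80, 7.81 and 6.79). Afdn, afadin, which links nectins to actin, was at 6.80, 7.01 and 10.11, and Ctnnd1, p120-catenin, at 5.99, 6.03 and 8.33. Of 22 genes in this list 17 had a difference above 0 and the median was 0.20. Of 21 cathepsin and lysosomal genes Ctsl (9.95, 11.66 and 8.17) and Hexa, a hexosaminidase chain (8.36, 8.11 and 7.14), were lower.

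Of 29 amino acid transporters 4 were lower and 0 higher. Besides Slc7a11 and Slc6a19, Slc36a4 was at 7.91, 7.98 and 6.13 and Slc43a2, a carrier of large neutral amino acids, at 10.48, 10.46 and 8.73. Of 32 potassium and calcium channel genes 4 were lower and 0 higher, including Orai2, a store-operated calcium channel (10.54, 10.68 and 9.37), and Cacna1e (8.68, 8.92 and 6.96). Among flippases and ABC transporters, Abca1, which exports cholesterol, was at 8.96, 8.64 and 7.26 and Atp10a at 10.78, 11.06 and 9.05. Atp8a2, another flippase, was the exception at 6.48, 6.46 and 10.40.

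In glycolysis and gluconeogenesis 2 of 28 were down and 3 up around a median of 0.11. Tpi1, triose phosphate isomerase, was at 9.70, 9.79 and 10.88 and Hk2, hexokinase 2, at 6.75, 6.91 and 7.81. Ldhb, a lactate dehydrogenase chain, was at 10.96, 11.41 and 9.64, and Pfkfb3, which makes the activator of phosphofructokinase, at 8.40, 8.29 and 7.24. Of 15 pentose phosphate and one-carbon genes 12 had a difference above 0, 3 were identical on the 2 arrays and none was below. Their median was 0.38, and Mthfd1, a folate enzyme, was at 8.83, 8.73 and 9.97. Scd1, which desaturates fatty acids, was at 7.28, 7.93 and 9.23, alone beyond 2-fold among 30 lipid synthesis genes. Of 32 antioxidant genes only Gstm1, a glutathione transferase, was beyond 2-fold (7.62, 7.84 and 6.54).

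Genes of protein synthesis and DNA replication had small differences, mostly of one sign, on the TCF-1-deficient array. Of 37 ribosome biogenesis genes 36 were above 0 (97.3%) with a median of 0.51, and Polr1b, a subunit of RNA polymerase I, was the one beyond 2-fold (8.95, 8.89 and 9.97). Of 49 cytosolic ribosomal protein genes 44 were above 0, with a median of 0.29 (0.295 before rounding), and 10 were higher by at least 1.5-fold. The largest difference was in Rps19, at 9.35, 9.25 and 10.35. Ribosomal protein genes have many processed copies that can share signal.

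Of 43 DNA replication genes 33 were above 0, with a median of 0.35, and at 1.5-fold 8 were up and 1 was down. Pold1, a catalytic DNA polymerase subunit, was at 9.35, 9.19 and 10.28. The 40 mitosis and spindle genes had a median of 0.05, which turned to -0.00028 when arrays were centred on their medians over named genes, and none was beyond 1.5-fold. Regulators of cell cycle entry were more divided, with 5 of 27 lower and 2 higher. E2f2 was at 10.14, 10.02 and 8.35, the retinoblastoma family gene Rbl2 at 10.08, 10.03 and 8.91 and the inhibitor Cdkn1b, p27, at 11.28, 11.14 and 10.15. Cdkn2a, which encodes p16 and p19ARF, was at 6.86, 6.96 and 8.04 and Ccnd1, cyclin D1, at 6.90, 7.05 and 8.13.

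Respiratory chain genes, 39 of 49 above 0, had a median of 0.16, and proteasome genes, 28 of 36 above 0, a median of 0.20. Aminoacyl-tRNA synthetases, 16 of 18 above 0, had a median of 0.17. No member of these lists was beyond 2-fold. Chaperones differed both ways. Dnajb9 (9.85, 9.37 and 7.79) and Dnajc3 (10.75, 10.78 and 9.60), both chaperones of the endoplasmic reticulum, were lower, and the co-chaperone Bag3 was higher (6.96, 7.12 and 8.995).

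Among chromatin genes, Kdm5b, a histone H3 lysine demethylase, was 4.74-fold lower (10.28, 10.45 and 8.03) and Arid1b, a subunit of the BAF remodelling complex, 5.12-fold lower (10.74, 10.86 and 8.38). Chd3 was at 9.18, 8.58 and 7.27. The DNA demethylases Tet1 and Tet2 were 2.55-fold and 2.36-fold lower. Of 32 DNA and histone methylation enzymes 23 had a difference below 0, with a median of -0.23. In the Polycomb and fetal-type list Igf2bp3, a fetal-type regulator of mRNA, was at 6.08, 5.51 and 9.71, while Arid3b was 2.24-fold lower.

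Cd1d1 and Mr1, whose products display antigen to unconventional T cells, were both beyond 2-fold. Cd1d1, which presents lipids, was at 8.74, 8.85 and 6.93 and Mr1, which presents vitamin metabolites, at 11.64, 12.10 and 9.88. Of 26 genes of the MHC and antigen presentation list 3 were lower and 1 higher, and its median of 0.02 changed sign with scaling. Interferon-induced genes had a median of 0.21, with 29 of 42 above 0. Usp18, which restrains interferon signalling, was at 8.36, 7.79 and 10.31 and Oasl2 at 7.26, 6.82 and 8.69, while Gbp4 was at 10.80, 10.26 and 8.62. Among cytotoxic effector genes Gzma, granzyme A, was at 8.95, 8.54 and 11.60 and Cst7, a protease inhibitor, at 7.45, 6.87 and 8.56, and 0 of 18 were lower.

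Lower genes also lay side by side in the genome. With genes ordered as in the RefSeq table, 12 stretches had at least 3 of 4 consecutive measured genes beyond 2-fold the same way, 11 of them lower and 1 higher. They held 37 lower genes. On the X chromosome the receptors P2ry10 (10.61, 10.63 and 9.35), P2ry10b (9.36, 9.32 and 6.998) and Gpr174 (8.21, 7.87 and 5.70) were lower together. P2ry10 and Gpr174 are receptors for lysophosphatidylserine. Also on the X chromosome, Armcx3 (8.16, 8.31 and 5.05), Armcx2 (7.84, 8.08 and 6.01) and Armcx1 (7.74, 7.80 and 6.53), which encode armadillo-repeat proteins, were lower, and Armcx6 between them differed by -0.83.

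On chromosome 5 the guanylate-binding protein genes Gbp8, Gbp4 and Gbp11 were lower with their neighbour Abcg3, by -2.53, -2.17, -1.46 and -2.16, while Gbp9 differed by -0.25. These genes have close relatives and may share signal. On chromosome 14 Rb1, the retinoblastoma gene, was at 10.92, 10.61 and 9.82 and Lpar6, a lysophosphatidic acid receptor that lies within an intron of Rb1, at 11.67, 11.57 and 10.05. Wdr78 on chromosome 4 was lower with Mier1 (10.89, 11.51 and 9.05), Insl5 and Tctex1d1. Rag1 and Rag2, subunits of the V(D)J recombinase, were 3.85-fold and 2.70-fold lower with their neighbour Iftap, and Cd8b1 and Cd8a with Rmnd5a. Trav14-1, Trav7d-4, Trav7n-5 and Trav12-2, variable segments of the T cell receptor α chain, differed by -3.14, -1.96, -1.93 and -1.26. Trav12-2 was dim on both arrays (6.02 on wild type and 4.76 without TCF-1). Trav13-5 in the same stretch differed by -0.18, and Trav19, outside it, by -0.88. Such segments are near-identical to other segments. In the other direction, on chromosome 12, Tedc1, Tmem121 and Crip1 were higher by 1.62, 1.45 and 1.002.

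**Figure D4:**
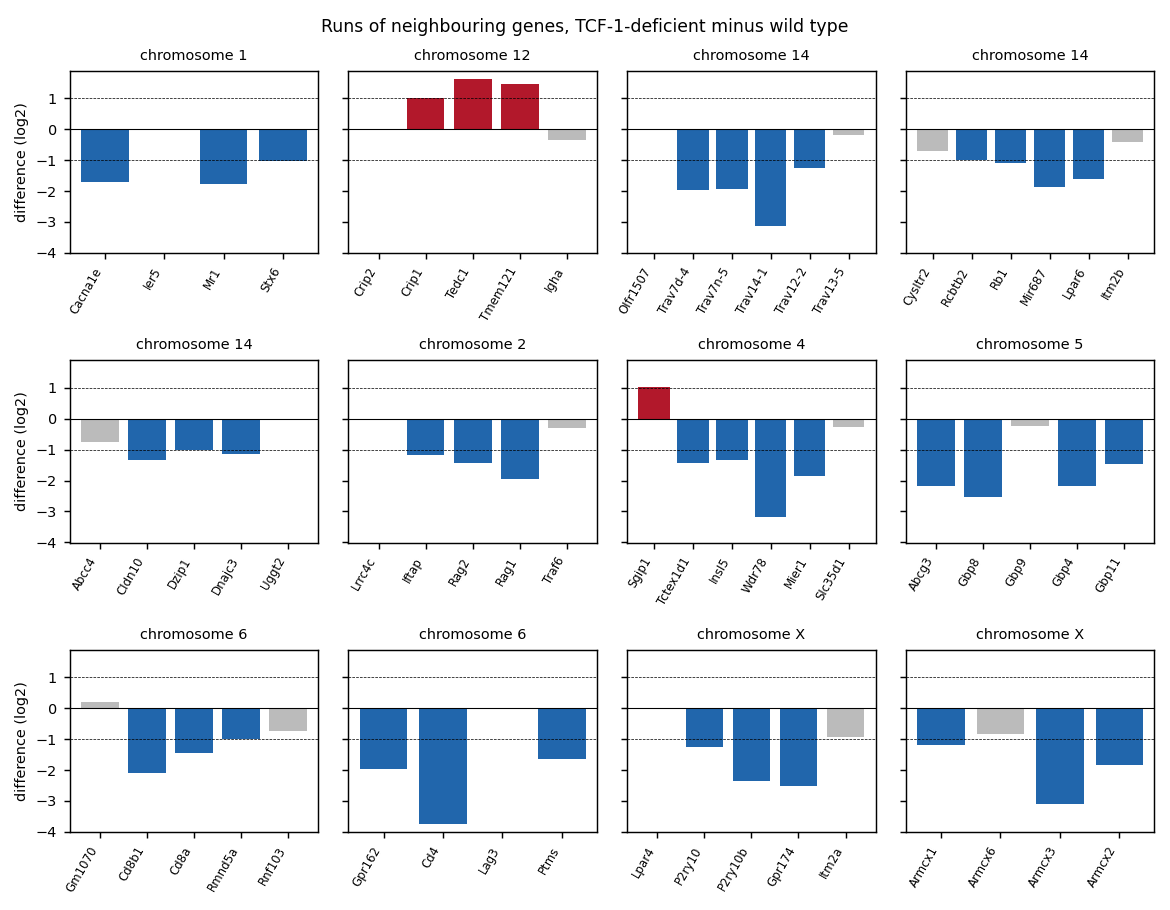
Bars are TCF-1-deficient minus wild type differences (log2) of consecutive measured genes in the 12 stretches, in genome order. Blue bars are at least 2-fold lower, red bars at least 2-fold higher, grey bars neither, and dashed lines mark 2-fold. In 11 stretches the genes beyond 2-fold are mainly lower, and in the stretch on chromosome 12 they are higher.

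Dgke and Dgkeos, a pair on opposite strands, are neighbours of another kind. Their RefSeq windows, from 250 bases before to 50 after each gene's start, share 102 bases. Dgkeos was at 11.22, 10.70 and 7.08 and Dgke at 10.14, 10.02 and 7.38. Promoter windows are printed for this gene and for Jup, among the lowest genes, and for Ly86, among the highest, because factors such as TCF-1 bind a short core. The letters CTTTGA or CTTTGT on either strand were searched and are in capitals. The windows are from RefSeq, build GRCm38.p6, each 300 bases long, in the direction of the gene: Dgke at chr11:89060699-89060998 on the minus strand, Jup at chr11:100397741-100398040 on the minus strand and Ly86 at chr13:37345095-37345394 on the plus strand.

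Dgke: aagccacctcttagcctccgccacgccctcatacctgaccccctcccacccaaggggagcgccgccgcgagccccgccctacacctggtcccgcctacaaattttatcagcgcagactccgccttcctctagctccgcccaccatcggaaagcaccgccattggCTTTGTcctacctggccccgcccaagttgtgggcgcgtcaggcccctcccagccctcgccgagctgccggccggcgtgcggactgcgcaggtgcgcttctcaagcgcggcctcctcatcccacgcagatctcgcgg
Jup: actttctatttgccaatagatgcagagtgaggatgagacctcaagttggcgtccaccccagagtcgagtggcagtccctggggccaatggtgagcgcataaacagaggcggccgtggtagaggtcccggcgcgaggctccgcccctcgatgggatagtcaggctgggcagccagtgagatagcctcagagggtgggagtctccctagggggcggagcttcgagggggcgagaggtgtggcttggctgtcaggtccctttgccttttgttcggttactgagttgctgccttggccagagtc
Ly86: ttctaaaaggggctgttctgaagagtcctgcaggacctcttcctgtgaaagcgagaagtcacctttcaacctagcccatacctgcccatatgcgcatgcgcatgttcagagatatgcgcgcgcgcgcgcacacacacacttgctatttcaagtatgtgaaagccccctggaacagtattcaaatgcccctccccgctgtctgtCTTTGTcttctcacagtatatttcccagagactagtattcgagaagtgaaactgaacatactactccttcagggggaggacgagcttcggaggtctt

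The Dgke window holds 1 match, the Ly86 window 1 and the Jup window 0. The Dgkeos window, searched but not printed, holds 0. The Dgke match thus lies outside the 102 bases that the pair shares. A match of these letters is common: 31.2% of all 32851 windows in the table hold one. Of the genes compared, 15614 had a window, of which 28.1% held a match. The share was 23.1% of 398 lower genes and 21.9% of 201 higher genes. A match is a description of the sequence and shows no binding.

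MicroRNA precursors beyond 2-fold were all lower, 15 of 297 measured (5.05%) against 2.62% of all genes. The class as a whole was not lower: the median difference of the 297 was 0, with 17.2% below 0 and 29.6% above. MicroRNAs are cut from hairpin precursors and pair with target mRNAs through their seed, bases 2 to 8. The array measures RNA that holds the precursor, and the mature microRNA was not measured. Sequences are from RefSeq, build GRCm38.p6, which held mature sequences for all 15, and the seed is in capitals. Mature forms of the 4 precursors with the largest differences are shown, with the pair that shares a seed first. Mir30e and the let-7 family member Mir98 follow as members of widely known families. Both the 5p and the 3p form are shown for Mir142. For the others only the 5p form is shown, though each also has a 3p form.

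mmu-miR-181a-5p: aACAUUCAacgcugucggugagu
mmu-miR-181b-5p: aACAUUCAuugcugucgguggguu
mmu-miR-15b-5p: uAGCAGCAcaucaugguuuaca
mmu-miR-142a-3p: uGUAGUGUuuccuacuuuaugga
mmu-miR-142a-5p: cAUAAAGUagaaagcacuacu
mmu-miR-30e-5p: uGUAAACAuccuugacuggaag
mmu-miR-98-5p: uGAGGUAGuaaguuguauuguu

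miR-181, known for tuning the sensitivity of thymocytes to antigen, had the largest differences. Mir181b-1 was at 11.64, 10.87 and 8.08 (11.8-fold lower without TCF-1) and its neighbour Mir181a-1 at 8.66, 7.44 and 5.25 (10.6-fold lower). Their 5p mature forms lie at chr1:137966650-137966673 and chr1:137966468-137966490, both on the plus strand, and share the seed ACAUUCA. Mir181b-2, from another locus with the same 5p mature form as Mir181b-1, was at 7.24, 6.72 and 6.08. The rest of the family, added to complete it whatever the values, did not reach 2-fold: Mir181a-2 differed by -0.45, Mir181c by -0.13 and Mir181d by 0.

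Mir142, a precursor specific to blood cells, was at 9.63, 8.68 and 7.23, and Mir15b at 7.45, 6.81 and 4.88. Mir30e was at 7.44, 6.60 and 5.70, Mir505 at 10.07, 9.28 and 8.42 and Mir98 at 6.41, 5.91 and 5.38. For all 15 the transgenic value lay between the other two. Unnamed probe sets moved the same way: their medians were 6.48, 6.24 and 5.99, and 2443 of the 12146 had a decrease of 2-fold or more. The part of this shift in the precursor values was not tested. Of the 70 precursors at or above the median level on at least 1 array, 8 were at least 2-fold lower (11.4%) and 0 higher. Of these 70, 28.6% had a difference below 0 and 47.1% above. Among all genes at or above that level on both arrays, 362 of 9558 were lower. The counts were 140 of 290 at or above it on the wild type array only and 0 of 474 on the TCF-1-deficient array only.

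**Figure D5:**
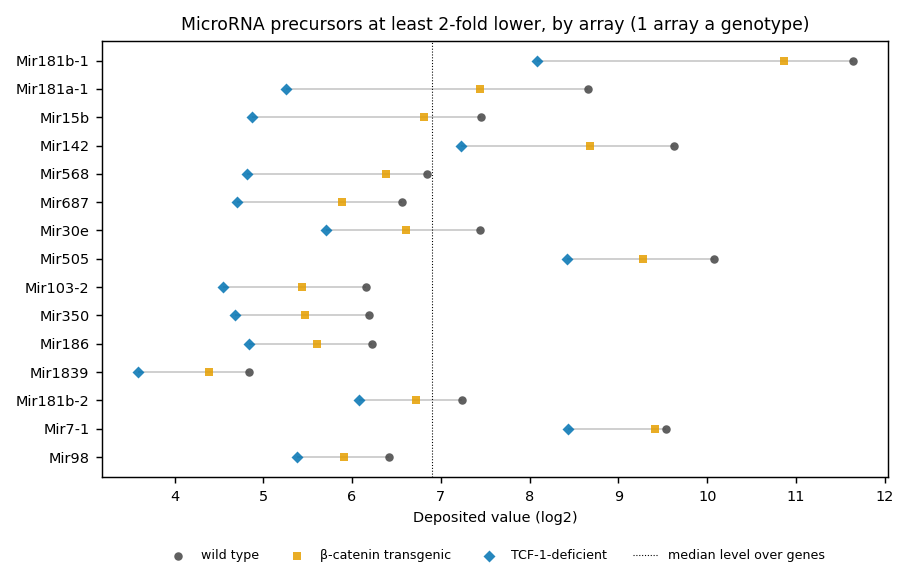
Log2 values on the 3 arrays for the 15 microRNA precursors that were 2-fold or more lower without TCF-1. In each row the wild type value (grey) is highest, the transgenic value (orange) is between and the TCF-1-deficient value (blue) is lowest, and the dotted line is the median level over genes (6.90).

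Markers of other cell types were summed on the linear scale. The B lymphocyte sum was 1606 on the wild type and 2982 on the TCF-1-deficient array, with 3 of 10 measured markers at least 2-fold higher and 0 lower. The myeloid sum was 1589 against 4934, with 3 of 13 higher, and most of this was Ly86. The others were Cybb, an oxidase subunit of phagocytes (7.19, 7.58 and 8.75), and Lyz2, lysozyme (8.05, 8.44 and 9.17). Csf1r, the receptor of macrophage growth factor, was at 6.66, 6.66 and 6.86, and Adgre1, F4/80, at 5.58, 5.58 and 5.74, both dim. The sum for γδ, innate-like and NK genes was 1914 against 6103, with 5 of 12 higher and 1 lower. This sum holds Gzma and Blk, already named among the highest genes. The median of the 12 was 0.01, and 6 were dim on both arrays. Tbx21 differed by -0.50 and Klrk1 by -0.64. The factor Sox13 was at 7.68, 7.75 and 9.63, while Ncr1, which defines NK cells, was at 4.67, 4.70 and 4.70.

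The fibroblast and pericyte sum was 913 against 4010, with Pdgfrb the 1 of 10 beyond 2-fold. Its companions Pdgfra (5.81, 5.82 and 5.82), Rgs5 (4.70 on each array) and Cspg4 (6.05, 6.24 and 6.24) were dim on all arrays. Sums for thymic epithelial markers were 1905 against 1526 and for endothelial markers 1399 against 1152. Dendritic markers summed to 4179 against 7493, with 1 of 11 at least 2-fold higher, 0 lower and 6 dim on both arrays. Class II genes such as H2-Ab1 were at 9.86, 10.10 and 10.81. Itgax (6.27), Siglech (6.33), Xcr1 (6.35) and Clec9a (5.10) were dim and had the same value on each array. The erythroid sum was 850 against 1533, with 5 of 9 listed markers measured and 2 of these higher. They were Alas2, an enzyme of haem synthesis (7.14, 8.25 and 8.28), and Tfrc, the transferrin receptor (8.83, 8.52 and 9.83). Alas2 was raised on the transgenic array as well. Slc4a1 (6.68, 6.86 and 6.86) and Klf1 (5.85 on each array) were dim. The plasma cell sum was 3168 against 2165, with Sdc1, syndecan-1, higher (6.22, 6.38 and 8.32) and Xbp1, a factor of secretory cells, lower (11.06, 11.35 and 10.05). The part of such cells in the values of Maf, Blk, Gzma, Cpa3, Ly86 and Spib was not tested.

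Finally, genes were grouped without any chosen list, by the letters that begin their symbols. Of 152 such families with at least 15 measured genes, 60 had no gene beyond 2-fold. Over all genes 2.62% were lower and 1.33% higher. The largest shares of lower genes were in Ifi (2 of 15, Ifi209 and Ifi208) and Cd (12 of 94). Cd genes went both ways, with 6 of 94 higher (6.38%). Ifi209 was at 9.18, 7.98 and 7.30, so the transgenic array was low too. The largest share of higher genes was in the tetraspanin family Tspan, 3 of 19, with Tspan9 at 7.40, 7.40 and 9.06, Tspan31 at 9.36, 8.81 and 10.86 and Tspan15 at 6.32, 6.47 and 7.33. Next was Ptpn, the tyrosine phosphatases, with 2 of 17 higher and 1 lower, and Ptpn13 at 5.91, 6.12 and 8.56. These shares rest on few genes. By chromosome, the share of lower genes ran from 1.68% (chromosome 8) to 3.62% (chromosome 10) and the share of higher genes from 0.865% (chromosome 7) to 2.15% (chromosome 12).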

How the data were processed

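The data are 3 single Affymetrix arrays of mouse thymocyte RNA. The deposited table holds 1 log2 value for each of 35556 probe sets per array, made by the authors with RMA and Partek per the submitters' processing notes. The log base is taken from RMA's usual output and the range of 1.73 to 14.8. Their versions, settings and the build were not given in the sources used here. No further normalization was applied. Columns of samples outside the series numbered 0.

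The platform annotation names 21789 probe sets by 1 symbol, which represent 19938 genes. The 1621 with several symbols and 12146 unnamed were not used as genes. For 999 genes with several probe sets, the brightest on average across the 3 arrays stood for the gene. Differences of at least 1 (2-fold) were counted, a rule of size with no test. The number of arrays limits the precision.

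Named genes are the 15 lowest and 15 highest with both arrays at or above the median level, 10 each way between the upper quartile and below the median, up to 4 per list beyond 2-fold or else the largest, the leading members of 12 symbol families, genes in stretches of neighbours and microRNA precursors. Cell type markers, further list members beyond 2-fold and genes lying within a stretch are named too, chosen after their values were seen. Members and lists were chosen with earlier results of these data known. Of list entries, 6 matched through a synonym. The counting was checked on simulated data with little noise and added changes larger than the cut. That checks the code and says nothing of how reliable the counts are. Alternatives were other thresholds, scalings, a loess trend (span 0.3), a filter on dim genes and other probe set rules. Leaving out identical values was chosen after seeing the data. Software comprised Python 3.11.15, NumPy 2.4.6, pandas 2.3.3, statsmodels 0.14.6 and matplotlib 3.10.9. One of the lists is not reported here.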

Additional observations from a re-analysis of the deposited data

Results flagged for a closer look

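Some probe sets outside the comparison were above wild type, in shares below the 1.33% of all genes. Of the 12146 unnamed probe sets, 117 (0.963%) were above wild type by 2-fold or more without TCF-1, the largest difference being 2.53. Lower by that size were 2443 (20.1%), down to -4.84. Of the 1621 probe sets with several symbols, 19 (1.17%) were higher, the largest difference being 2.84. In that group 55 (3.39%) were lower, down to -5.74. Neither group was used in the counts of genes.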

How the results depend on the processing

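At 1.5-fold 1376 genes were lower and 806 higher, and at 3-fold 175 and 107. Under the other 6 alternatives the counts stayed within 1.5 times of 523 and 266: lower genes numbered 405 to 577 and higher genes 241 to 364, with both extremes from centring the arrays. Of the 242 named genes beyond 2-fold, all 242 kept their sign under the 3 scalings and both other probe set rules. This is a weak check. Centring adds only 0.13 or -0.05 to every difference, so it could not change a sign at that size. Most genes have 1 probe set, for which the probe set rules change nothing. With centring on all probe sets 212 stayed beyond 2-fold. The junction median moved to 0.64 without genes dim on both arrays. Armcx3 was lower by 2.05 on its dimmest probe set. No paired analysis was possible because each group has 1 array. Signal near background limits the dim genes.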

Other observations

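Several genes below the median level on the wild type array were outside the rule for named genes and were chosen after their values were seen. Bex1, a small adaptor protein, was at 4.20 on the wild type, 3.92 on the transgenic array and 8.60 without TCF-1, the second largest difference upward (4.40) of all genes. Il10, the anti-inflammatory cytokine, was at 4.14, 4.14 and 6.34, and Rxfp1, a relaxin receptor, at 5.37, 4.995 and 8.12 in the same order. Naip5 and Naip6, sensors of bacterial flagellin, were at 7.85 and 6.16 without TCF-1 and at 4.83 and 3.79 on the wild type array. They are close relatives and can share signal. The sizes of these differences are uncertain because the wild type side is dim. For Il10 and Naip6 both compared arrays were below the median level over genes (6.90).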
